A study of Rattus norvegicus with 12 samples.

Results

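The miRNAs described here were miR-449a, miR-449b, miR-34b-3p, miR-34c, miR-204 and miR-211, 6 of the 375 miRNA assays on a TaqMan qPCR card (Rodent card A), picked by name. They are known from cells that carry motile cilia and from the choroid plexus, the ventricular epithelium that secretes cerebrospinal fluid. The study asked which miRNAs mark the stellate cells of the medial entorhinal cortex (MEC), the layer II neurons that send axons to the dentate gyrus, in Long Evans rats. The retrograde dye DiO was injected into the dentate gyrus of pups at P2, and MEC cells were dissociated and sorted at P4/5. The groups were 5 samples of DiO-positive cells (stellate), 5 samples of DiO-negative cells (non-stellate) and 2 samples of MEC tissue dissected from P23 rats and not sorted. Viable cells were gated first and then split by dye fluorescence, with no marker of cell type. The non-stellate gate could thus hold unlabelled MEC cells of any type, stellate cells missed by the dye included. Tissue differed from the sorted cells in age, dissociation and RNA extraction kit at once, and the amount of RNA may have differed too. No sample was a sort of ciliated or choroid plexus cells, so that the set is named for where these miRNAs are known and not for what was sampled.

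In vertebrates miR-449a and the miR-34b/c pair are abundant in multiciliated epithelia such as airway, oviduct and ependyma, where they act redundantly through a shared seed, the stretch of the miRNA that pairs with its targets, and lower Ccp110, a protein that holds back centriole maturation. MiR-34a, the other family member on the card, is a broadly expressed target of p53. MiR-204 and miR-211 share another seed, lie in introns of the Trpm3 and Trpm1 genes, and are known from pigment epithelium, melanocytes and choroid plexus.

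The sequences show how the assays group and which of them could overlap in what they measure. They are the rat mature miRNAs of RefSeq (build GRCr8), 5′ to 3′, with the seed (bases 2 to 8) in capitals. The table held 5 of the 6 miRNAs, and miR-449b is named only. The assays carry mouse names, and except for miR-34b-3p the card names give no arm, so the 5p arm is shown.
miR-449a: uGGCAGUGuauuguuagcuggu
miR-34c: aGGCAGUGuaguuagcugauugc
miR-34a: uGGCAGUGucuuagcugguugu
miR-34b-3p: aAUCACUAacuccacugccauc
miR-204: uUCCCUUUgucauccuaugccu
miR-211: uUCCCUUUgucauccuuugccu

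MiR-449a, miR-34c and miR-34a shared the seed GGCAGUG. Aligned from the 5′ end without gaps, 10 of 22 bases of miR-449a were identical to miR-34c and 15 of 22 to miR-34a. That count misses stretches that match at a shifted position. The stretch guuagcug is in both miR-449a and miR-34c, and uuagcuggu is in both miR-449a and miR-34a. MiR-34b-3p comes from the opposite arm of its hairpin and had the seed AUCACUA, so it does not belong to the GGCAGUG group although its hairpin is a neighbour of that of miR-34c. MiR-204 and miR-211 were identical in 21 of 22 bases, with the substitution A17U counted from the 5′ end of miR-204. How far the miR-204 and miR-211 assays, or those of miR-449a, miR-34c and miR-34a, detect each other's target was not tested.

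The miR-449a sequence lies at chr2:46403925-46403946 on the plus strand, inside the span of an uncharacterised lncRNA, LOC134485839, and its hairpin is 1436 bases from that of miR-449c. MiR-34c (chr8:60306133-60306155) and miR-34b-3p (chr8:60306621-60306642) lie on the minus strand inside the span of Hoatz, with 441 bases between their hairpins. MiR-204 lies at chr1:229743493-229743514 inside Trpm3 and miR-211 at chr1:127189353-127189374 inside Trpm1, both on the plus strand. Only gene spans were read, so that exon and intron were not assigned from the table.

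Values are Ct, the PCR cycle at which a well crosses its threshold, a log2 scale that falls as abundance rises, with 40 in wells that stayed undetermined. U6-scaled Ct is Ct minus the mean Ct of the 4 wells of U6, a small nuclear RNA, and a log2 fold change (LFC) is minus the difference in scaled Ct. The samples differed in determined assays and in U6 Ct, which stand in for the amount of RNA. Determined miRNA assays numbered 234 to 260 in stellate, 203 to 241 in non-stellate and 292 to 302 in tissue samples, and mean U6 Ct ran from 16.5 to 19.0, 17.7 to 20.2 and 15.6 to 16.0. The description field of non-stellate 3 and 5 calls them labelled, against their titles, sources and fluorescence, and they were kept as non-stellate. For the tested members the U6-scaled LFC between the sorted groups is also given without both, as are other values that these samples moved most.

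Of the 6 miRNAs 4, miR-449a, miR-34b-3p, miR-34c and miR-204, were determined in all 12 samples. MiR-449b was undetermined in 11 of 12 samples, and miR-211 in 7 samples, all of them sorted. Each sorted sample held 4 or 5 determined members, and each tissue sample held 5.

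**Figure D1:**
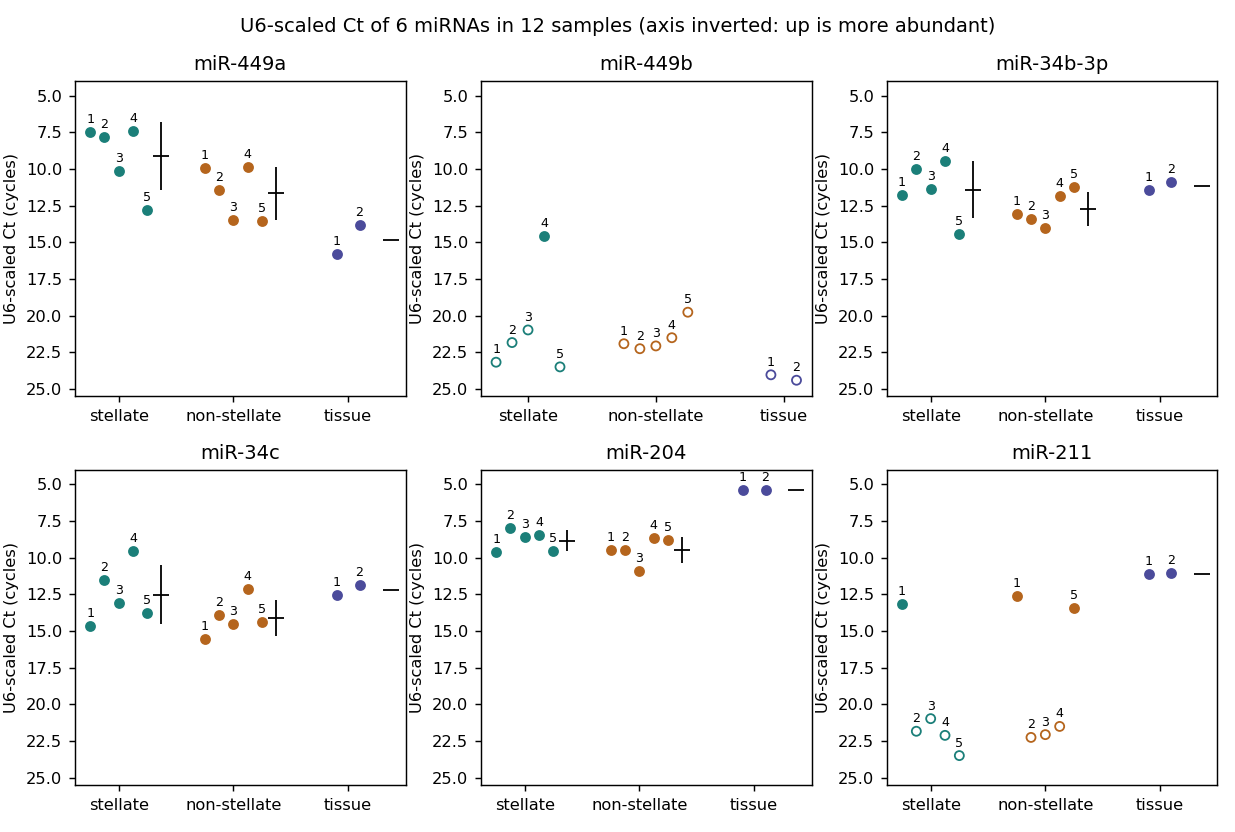
U6-scaled Ct in cycles (inverted axis, up is more abundant) of each of the 6 miRNAs in 5 stellate, 5 non-stellate and 2 tissue samples, numbered by replicate; open circles are undetermined wells set to 40 before scaling. Black marks give the mean and, for the sorted groups, the SD, where every well was determined. MiR-449a is lowest in tissue, miR-204 is highest there, and miR-449b was determined in stellate 4 only.

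MiR-449a had the largest stellate excess and the lowest tissue level, relative to the sorted cells, of the tested members, though the former did not pass the test. Its Ct was 24.3, 26.0, 29.2, 25.3 and 29.3 in stellate 1 to 5, 28.0, 29.1, 31.4, 28.4 and 33.8 in non-stellate 1 to 5, and 31.8 and 29.4 in tissue. Scaled to U6, stellate 1 to 5 gave 7.51, 7.81, 10.2, 7.42 and 12.8, non-stellate 1 to 5 gave 9.95, 11.4, 13.5, 9.86 and 13.6, and tissue 15.8 and 13.8. Stellate 1, 2 and 4 were above every non-stellate sample, while stellate 3 and 5 fell among them, so the sorted groups overlapped. Both tissue samples were below all 10 sorted samples.

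The stellate mean of miR-449a was 9.14 ± 2.33 (SD, n = 5) and the non-stellate mean 11.7 ± 1.81 (SD, n = 5), an LFC of 2.52 ± 1.16 (SE) or 5.72-fold. The difference did not pass (limma BH-adjusted p = 0.587), as for all 222 tested assays, of which 0.0% passed and 7.21% (16) had an unadjusted p under 0.05. The exact two-sided permutation of 5 against 5 gave p = 0.0952. Stellate cells were higher in 5 of 5 pairs of the same replicate number, by 2.44, 3.60, 3.31, 2.44 and 0.79, where 10.8% of tested assays were higher in all pairs. Only 10 of the 222 had a larger LFC, read against a median LFC of 0.46 over all tested assays.

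MiR-449a kept its direction after median centring, which subtracts in each sample the median Ct of the 176 assays with a call in every sorted sample. Its LFC was then 2.12 ± 1.05 (SE, limma BH-adjusted p = 0.350), with all 5 pairs higher by 1.46 to 3.00 against a background of 11.7%. Global mean scaling subtracts the mean Ct of the same assays. With it and the replicate number as a block, miR-449a was the single assay that passed, with an LFC of 2.18 ± 0.26 (SE, limma BH-adjusted p = 0.0455). The block alone gave an adjusted p of 0.269, and the block with median centring 0.0692. Without non-stellate 3 and 5, whose labels conflict and which had the 2 lowest non-stellate levels, the unblocked U6-scaled LFC was 1.27. That fit gave a limma BH-adjusted p of 0.991, with a median LFC of 0.16 over all tested assays.

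MiR-34c carries the same seed and ran in the same direction with a smaller shift. Its U6-scaled Ct was 14.7, 11.5, 13.1, 9.56 and 13.8 in stellate 1 to 5, 15.6, 13.9, 14.5, 12.2 and 14.4 in non-stellate 1 to 5, and 12.5 and 11.9 in tissue. Stellate 4 stood highest of all 12 samples and stellate 1 was below most non-stellate samples. The LFC was 1.58 ± 0.96 (SE) with 5 of 5 pairs higher, and it did not pass (limma BH-adjusted p = 0.629, exact permutation p = 0.183). Without stellate 4 it was 0.84, and without non-stellate 3 and 5 it was 1.35. After median centring it was 1.19 with pair 3 turned to -0.44.

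MiR-34b-3p, from the hairpin next to that of miR-34c, had a U6-scaled Ct of 11.8, 10.01, 11.4, 9.46 and 14.4 in stellate 1 to 5. Non-stellate 1 to 5 gave 13.1, 13.4, 14.0, 11.9 and 11.2, and tissue 11.4 and 10.9. Pair 5 ran against the others: stellate 5 was the lowest of all 12 samples and non-stellate 5 the highest of its group. The LFC was 1.32 ± 0.92 (SE, limma BH-adjusted p = 0.683, exact permutation p = 0.230), with 4 of 5 pairs higher by 1.29 to 3.41 and pair 5 at -3.20. Without replicate 5 the LFC was 2.45 and without stellate 5 alone 2.07, and without stellate 4 or replicate 2 it was 0.83 and 0.79. Without non-stellate 3 and 5 it was 1.39.

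MiR-449b was determined in a single sample, stellate 4, at Ct 32.4. That sample also had the highest U6-scaled level of miR-449a, miR-34b-3p and miR-34c among all 12. After median centring, miR-449a was higher in stellate 1 (-3.84) than in stellate 4 (-2.96). An undetermined well gives no level here, only a bound set by the amount of RNA in the sample, and miR-449b was not tested.

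**Figure D2:**
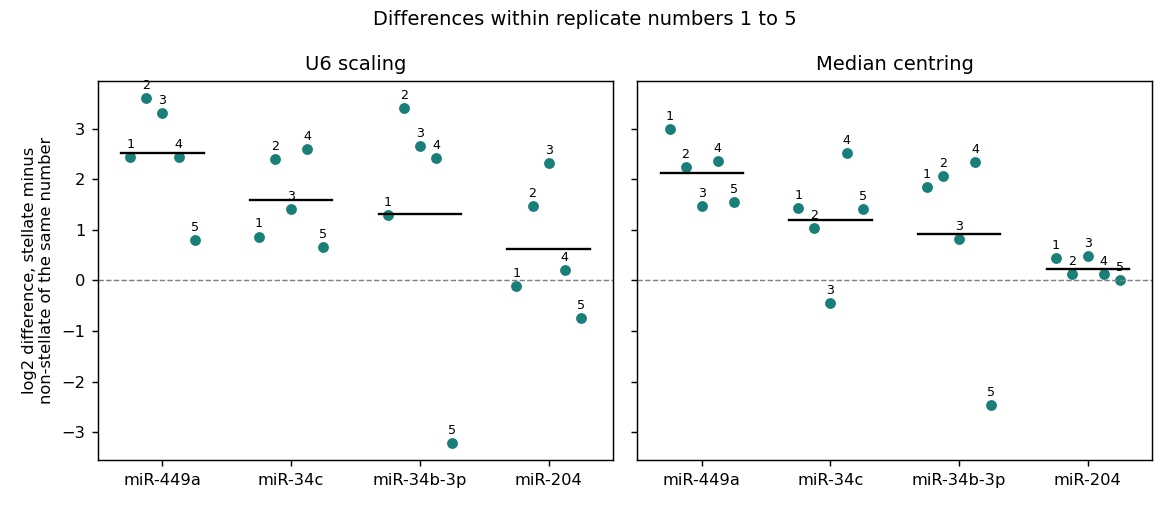
Log2 difference between the stellate and the non-stellate sample of the same replicate number for the 4 tested members, with U6 scaling (left) and median centring (right); points are pairs 1 to 5 and the bar is their mean. MiR-449a is above 0 in all 5 pairs under both scalings, miR-34b-3p in 4 of 5, and miR-204 lies between 0.005 and 0.48 after median centring.

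MiR-34a, the family member outside the cilia-linked loci, had a smaller LFC than miR-449a, miR-34c and miR-34b-3p, though these were not tested against each other. Its Ct ran from 27.4 to 28.6 in stellate, 28.3 to 30.4 in non-stellate and was 24.3 and 24.5 in tissue. The LFC was 0.39 ± 0.74 (SE, limma BH-adjusted p = 0.890), with 3 of 5 pairs higher, and -0.0055 after median centring. The card held none of miR-34b-5p, the other arm of miR-34c, or miR-449c.

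MiR-204 differed little between the sorted groups and was even across samples once sample-wide amounts were taken out. The U6-scaled Ct was 9.59, 7.99, 8.57, 8.45 and 9.56 in stellate 1 to 5, 9.48, 9.47, 10.9, 8.66 and 8.81 in non-stellate 1 to 5, and 5.41 and 5.37 in tissue. The sorted groups overlapped and tissue was above all of them. The LFC was 0.63 ± 0.57 (SE, 3 of 5 pairs higher, limma BH-adjusted p = 0.776, exact permutation p = 0.238), with 90 of the 222 assays larger. It was 0.27 without non-stellate 3 and 0.37 without non-stellate 3 and 5.

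After median centring, miR-204 was -1.88 ± 0.070 (SD, n = 5) in stellate and -1.65 ± 0.256 (SD, n = 5) in non-stellate cells. The stellate values lay between -1.92 and -1.76 and the non-stellate values between -1.90 and -1.31, an LFC of 0.24 ± 0.21 (SE) with 5 of 5 pairs higher and exact permutation p = 0.0952. The groups still overlapped, where 2.7% of tested assays had all stellate above all non-stellate samples. With global mean scaling the LFC was 0.30 ± 0.19 (SE) and all stellate samples were above all non-stellate samples, as for 3.60% of tested assays (8). An exact permutation of 5 against 5 (two-sided) then gave p = 0.00794, its lower limit, while the limma BH-adjusted p was 0.448. That permutation test was added with the values known.

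The members differed widely in how much samples of 1 group varied. Over the 176 assays determined in every sample, the pooled SD within the sorted groups (median-centred Ct) had a median of 0.631 cycles. MiR-449a had 1.82 cycles, the 4th most variable, miR-34c 1.42 (8th) and miR-34b-3p 1.13 (20th). MiR-204, at 0.188 cycles, was the least variable of all 176.

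**Figure D3:**
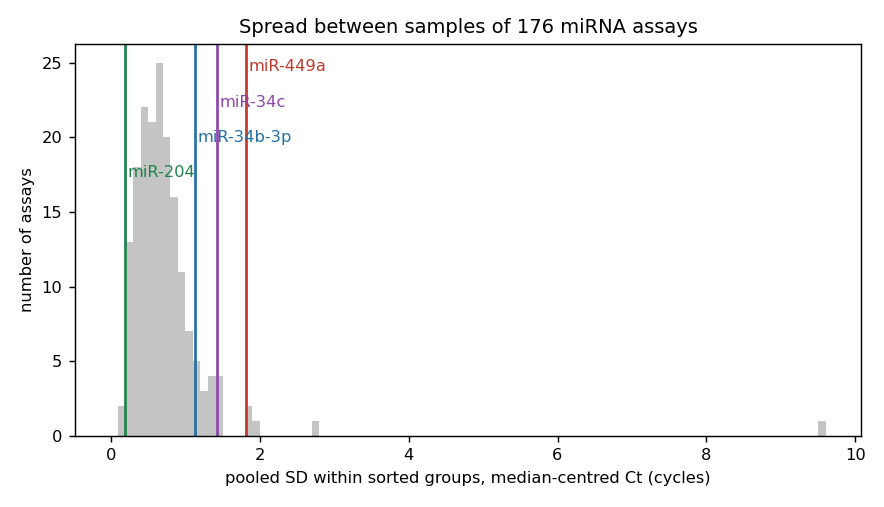
Histogram of the pooled SD within the stellate and non-stellate groups (median-centred Ct, cycles) over 176 miRNA assays, with the 4 members as vertical lines. MiR-204 is at the left edge at 0.188 cycles and miR-449a at 1.82 cycles in the right tail.

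MiR-211, the near-identical relative of miR-204, was determined in 3 of 10 sorted samples, at Ct 30.0 in stellate 1, 30.7 in non-stellate 1 and 33.7 in non-stellate 5. In tissue it was determined in both samples, at 27.1 and 26.6. Stellate 1 and non-stellate 1 share a replicate number, and their U6-scaled Ct of 13.2 and 12.6 was close. In these samples the U6-scaled Ct of miR-204 was 9.59 and 9.48, inside the range of the other sorted samples. MiR-211 was undetermined in more than the 3 sorted samples allowed for a test, and no LFC is given.

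The tissue comparison set the members far apart. Against the mean of both sorted groups and with U6 scaling, miR-449a was lower in tissue by a log2 difference of -4.43 ± 1.39 (SE), 21.5-fold (limma BH-adjusted p = 0.0136). Tissue was lower in 1.35% of tested assays (3) and higher in 62.2% (138), with a median log2 difference of 3.02. The other 2 lower assays were miR-296-3p (-9.17) and miR-467b (-2.96). Both tissue samples were below every sorted sample in 0.901% of the tested assays (2), of which miR-449a was 1.

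Since most assays were higher in tissue under U6 scaling, the difference was also read after median centring. There miR-449a was lower in tissue by -7.42 ± 1.29 (SE, limma BH-adjusted p = 0.000739), where tissue was lower in 25.2% and higher in 23.9% of assays, and only miR-296-3p was lower still. Both tissue samples stayed below every sorted sample, as for 26.1% of assays on that scale. Against stellate cells alone the U6-scaled difference was -5.69 (limma BH-adjusted p = 0.00651), and against non-stellate cells -3.17 (limma BH-adjusted p = 0.0818; -6.36 and 0.00341 after median centring). The order of miR-449a levels was thus stellate, non-stellate, tissue, with stellate and non-stellate not separated by the unblocked fit but called by the block with global mean scaling, and with non-stellate and tissue depending on the scaling.

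The 2 tissue samples disagreed more for miR-449a than for nearly all other assays. Tissue 1 was 2.36 cycles above tissue 2, and only 4 of 282 assays under Ct 35 in both differed more, with a median absolute difference of 0.193 cycles. Without tissue 1, which had the lower level, the U6-scaled difference was -3.44 and no longer passed (limma BH-adjusted p = 0.166). Without non-stellate 3 and 5 it was -5.05 (limma BH-adjusted p = 0.00494).

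MiR-204 was higher in tissue by 3.76 ± 0.65 (SE, limma BH-adjusted p = 0.000356), close to the median of all assays, with both tissue samples above every sorted sample as for 68.0% of tested assays. After median centring the difference was 0.77 ± 0.24 (SE, limma BH-adjusted p = 0.0209), again without overlap (27.0% of assays), and scaled to Y1, another reference small RNA, it was 0.25 (limma BH-adjusted p = 0.771). Its order was tissue, stellate, non-stellate, with the 2 sorted groups not different beyond their spread under the fit across all assays.

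MiR-34b-3p and miR-34c had U6-scaled tissue differences of 0.90 and 1.14 (limma BH-adjusted p = 0.494 and 0.406). Relative to the other assays they lay on the low side: after median centring the values were -2.09 and -1.85 (limma BH-adjusted p = 0.0476 and 0.142). They ranked 50th and 59th from the lowest of 222 assays, and 25.2% of assays were called lower in tissue on that scale. The direction of both thus turned with the scaling. MiR-34a was between, with 1.91 under U6 and -1.08 after median centring (limma BH-adjusted p = 0.0674 and 0.0548).

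**Figure D4:**
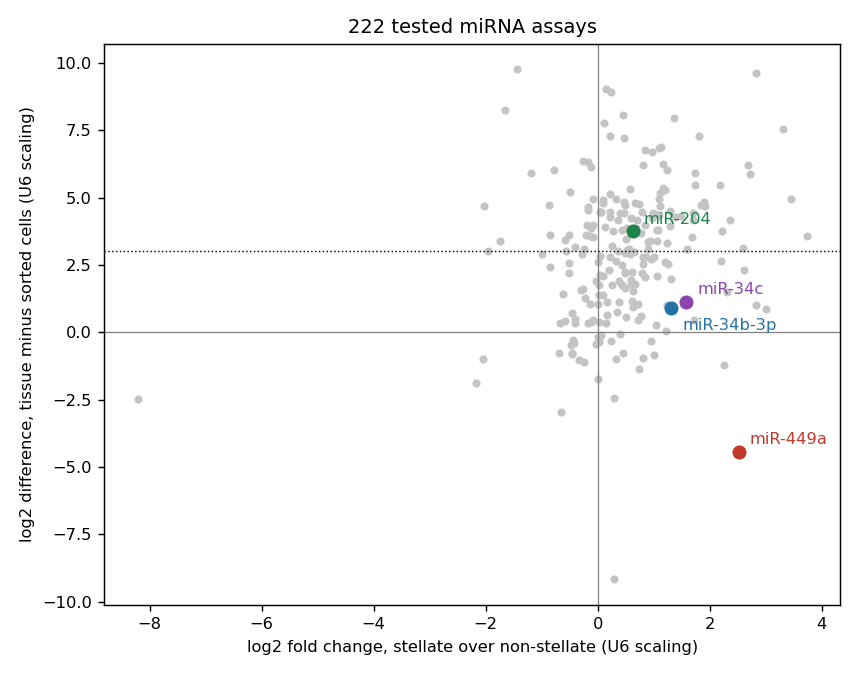
Each of 222 tested assays by its log2 fold change of stellate over non-stellate cells (x axis) and its log2 difference of tissue minus sorted cells (y axis), both with U6 scaling; both contrasts use the same sorted samples, and the dotted line is the median tissue difference of 3.02. MiR-449a is at the lower right (2.52 and -4.43). Other assays also have a positive x and a negative y value, among them miR-375 (2.25 and -1.21), with an x value near that of miR-449a. MiR-672 (0.74 and -1.36) and miR-680 (0.82 and -0.97) are further to the left. MiR-34c and miR-34b-3p are near each other, and miR-204 is close to the dotted line.

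Ct differences between a pair of assays in the same sample need no scaling at all, and 6 such differences were computed among the 4 determined members. Such a difference compares samples and says nothing of which miRNA is the more abundant. MiR-449a minus miR-34c was -7.18 to -0.97 cycles in stellate, -5.61 to -0.83 in non-stellate and 1.98 and 3.29 in tissue. The sorted groups overlapped (difference -0.93, exact permutation p = 0.508), and both tissue samples were above all sorted samples. MiR-449a minus miR-204 was -2.09 to 3.23 in stellate, 0.47 to 4.77 in non-stellate and 8.46 and 10.4 in tissue. The stellate values were lower in 5 of 5 pairs, by a mean of 1.89 cycles between the groups, which the exact permutation did not separate (p = 0.159).

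Between the sorted groups the exact permutation p of the 6 differences was 0.159 to 0.778, and no less than 0.524 after BH adjustment over the 6. Between tissue and sorted cells 5 of the 6 differences lay wholly outside the sorted range, with p = 0.0303 for each by exact permutation of 2 against 10 (two-sided, its lower limit) and 0.0364 after BH adjustment over the 6. Of all 15400 pairs among the 176 assays, 56.9% lay outside in the same way, and the 6 differences share 4 assays, so the count sets the members apart from no other assays. MiR-449a moved by 8.19 cycles relative to miR-204, 5.57 relative to miR-34c and 5.33 relative to miR-34b-3p. MiR-34b-3p minus miR-34c was the exception, at -1.08 and -0.96 in tissue inside the sorted range of -3.20 to 0.66 (shift 0.24, exact permutation p = 0.879).

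**Figure D5:**
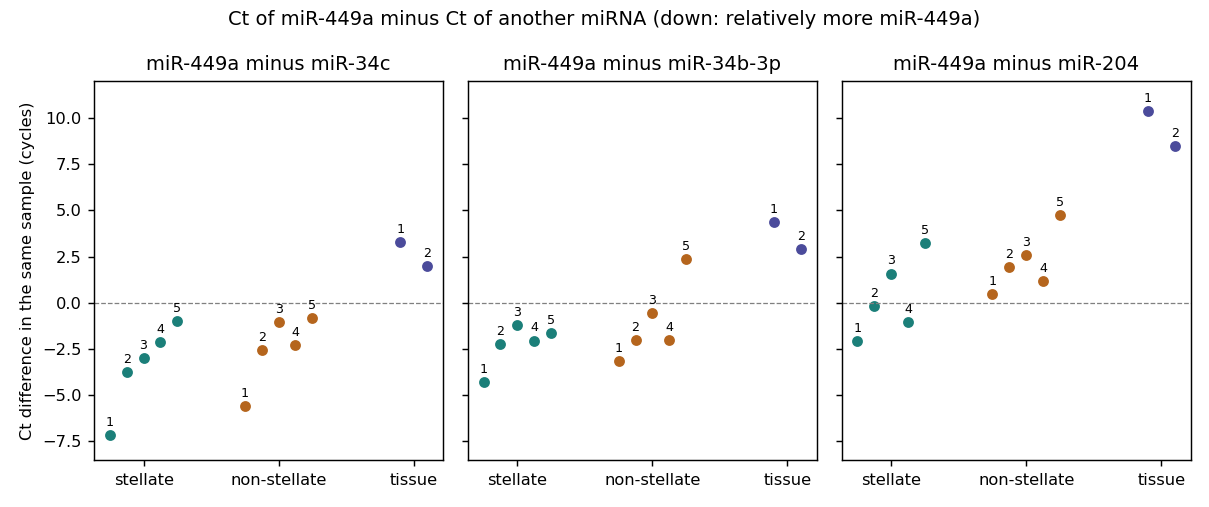
Ct of miR-449a minus the Ct of miR-34c, miR-34b-3p or miR-204 in the same sample (cycles, lower means relatively more miR-449a), for each numbered stellate, non-stellate and tissue sample. The tissue samples are above all sorted samples in each panel, by a mean of 5.57, 5.33 and 8.19 cycles.

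The assays whose levels followed a member most closely across the 10 sorted samples are given as a description, since the samples share the sort, the amplification and the scaling. For miR-449a they were miR-150 (Pearson r = 0.910 over median-centred Ct), miR-126-3p (0.893) and miR-375 (0.885) among 175 assays. MiR-34b-3p was closest to miR-375 (0.786), miR-667 (0.563) and miR-126-3p (0.560), and miR-34c to miR-652 (0.802), miR-126-5p (0.718) and miR-361 (0.712). MiR-204 was closest to rno-miR-344-3p (0.895), miR-128a (0.797) and miR-124 (0.785), although the Spearman rho of rno-miR-344-3p and miR-124 was only 0.535 and 0.432. The rho was also low for miR-126-5p with miR-34c (0.370) and for miR-126-3p with miR-34b-3p (0.467). For the other pairs named here it was at least 0.697.

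The members were not each other's nearest neighbours. MiR-34b-3p and miR-34c, from neighbouring hairpins, had r = 0.537 with miR-34c 5th among the 175 assays for miR-34b-3p. MiR-449a was correlated with miR-34b-3p at 0.525 (30th of 175) and with miR-34c, which has its seed, at 0.342 (43rd). With miR-204 it had 0.054. Without non-stellate 3 and 5 these were 0.827, 0.244 and 0.0079, the pair miR-34b-3p and miR-34c had 0.649, and miR-34c and miR-204 went from 0.500 to 0.733.

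Assays of other cell types were read beside the members. Of 6 miRNAs known from choroid plexus and other epithelia, 2 were measured in enough sorted samples to be tested, and neither passed, as for all tested assays. MiR-203 was determined in all 10 sorted samples (LFC 0.27, limma BH-adjusted p = 0.898) and miR-200a in 7 (LFC -2.05, limma BH-adjusted p = 0.783). MiR-200c and miR-429 were determined in 5 sorted samples each, and miR-141 and miR-200b in 2 each. The summed U6-scaled level of that list ran from -12.5 to -10.5 in stellate and from -12.8 to -10.8 in non-stellate cells (log2). The sorted groups thus overlapped, and tissue had -9.44 to -7.83. Over the 2 tested assays the median tissue difference was 1.38 with U6 scaling, against 3.02 over all tested assays. After median centring it was -1.61. MiR-200a, miR-200b and miR-429 were each determined in 1 of the 2 tissue samples, miR-200a at Ct 23.9. The tissue sums thus rest partly on assays with a call in 1 sample. MiR-203 was called higher in tissue (3.74, limma BH-adjusted p = 0.000322), but not after median centring (0.75, limma BH-adjusted p = 0.216).

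Vascular miRNAs, to which the assay following miR-449a second most closely belongs, were higher in stellate cells in 4 of 4, with a median LFC of 1.42, miR-143 at 2.69 and miR-126-3p at 1.73 (limma BH-adjusted p = 0.587 for both). Of the blood and microglia list 4 of 6 were tested and 3 were higher, with miR-150 at 2.37 and miR-146a at 1.06 (both 0.587). MiR-223 was at 0.22, and miR-142-3p was lower, at -0.77. After median centring both were lower in stellate cells, at -0.17 and -1.17. MiR-451 and miR-142-5p were undetermined in all 10 sorted samples. Of 5 neuronal miRNAs 4 were higher, with a median of 0.97, miR-138 at 1.70 and miR-128a at 1.39 (both 0.587). MiR-9 was lower, at -0.41 (-0.80 after median centring). The oligodendrocyte miRNAs miR-219 and miR-338-3p were determined in 2 and 3 sorted samples and not tested. Against 73.4% of all tested assays with a positive LFC, the lists are given by their counts only, and 0 of their assays passed.

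Summed U6-scaled levels were -10.2 to -5.96 in stellate and -11.0 to -8.05 in non-stellate cells for the vascular list, and -9.11 to -5.22 and -10.6 to -8.24 for the blood and microglia list. Tissue had -3.52 to -2.99 and -4.36 to -4.08, on a scale where 62.2% of tested assays were called higher in tissue. After median centring the median tissue difference was 3.07 for the vascular list and 0.999 for the blood and microglia list. The part of other cell types in the miR-449a result was not tested. In such pooled RNA, fewer cells of a type and less RNA per cell cannot be told apart.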

How the data were processed

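RNA of 10 sorted and 2 tissue samples was reverse transcribed and pre-amplified with Megaplex primers and run on 1 TaqMan card type. The raw Ct table deposited by the authors is on the log2 scale (PCR cycles), without normalization and with 40 for undetermined wells. Normalized values, deposited by the authors as log2 too, equal Ct minus the mean of 4 U6 wells (largest difference 7.1e-15). Their deposited tables of fold changes per replicate number and of limma statistics hold the study's own comparisons and were not used. Every per-sample column was used (0 left out). Cards have no read depth, so determined wells and U6 Ct stand in for it, and each miRNA was a single well.

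Groups came from titles, sources and fluorescence. Assays undetermined in at most 3 of 10 sorted samples were tested (222 of 375). The tests were limma 3.58.1 in R 4.3.3 on U6-scaled Ct, without a block as the study's methods state none, two-sided, BH-adjusted over all tested assays with a threshold of 0.05, and for the tissue contrast all 12 samples in 1 fit. Single values were compared by exact permutation (252 splits of 5 against 5, 32 sign patterns of 5 pairs, 66 splits of 2 against 10). The limma step was tested on simulated data. The design text describes labelled and unlabelled cells from 5 biological replicates, so the numbers were read as pairs, and deviations from group means correlated within pairs 1 to 5 at 0.331, 0.119, 0.256, 0.155 and 0.0743 (mean of different numbers -0.0481). Sample labels do not say how many animals each sample holds.

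The members and cell type lists were chosen with earlier results of these data known. Named assays were the 6 members, other miR-34 and miR-449 assays, for each member determined in all sorted samples the 3 with the highest Pearson r, and of each list those past the threshold or else the 2 with the smallest p. Tested list assays that were lower in stellate cells with U6 scaling or median centring were named too. Figures used matplotlib 3.10.9, and Python 3.11.15, numpy 2.4.6, scipy 1.17.1 and pandas 2.3.3 were used elsewhere. Alternatives changed the scaling, the wells at 40, the assay filter, the block, the variance moderation and the samples.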

Additional observations from a re-analysis of the deposited data

Results flagged for a closer look

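Among 16 groups of 5 samples looked at for a sample far from the rest, where chance gives about 0.8, 1 was found. The median-centred Ct of miR-204 was -1.76 in stellate 1, while the other stellate samples lay within -1.92 to -1.90. MiR-204 was the least variable assay, and this gap is small on the scale of other assays. MiR-449b, which enters no comparison, was determined in stellate 4 at Ct 32.4 and undetermined in all non-stellate and tissue samples.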

How the results depend on the processing

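Of 244 settings of the 4 tested members over both comparisons, 234 kept the direction and the side of the threshold, 6 turned direction (1 of them past the threshold in the new direction), 2 gained a call in the same direction and 2 lost one. Between stellate and non-stellate cells all 4 members kept a positive LFC under all alternatives. MiR-449a ran from 1.27 to 3.43 when samples were left out and from 2.12 to 3.30 otherwise (adjusted p or exact permutation p 0.0455 to 0.991), miR-34b-3p from 0.79 to 2.45 and 0.74 to 2.10, miR-34c from 0.84 to 2.12 and 1.19 to 2.37, and miR-204 from 0.21 to 0.97 and 0.11 to 1.42. The gains in the same direction were in miR-449a and miR-204. MiR-449a gained its call under global mean scaling with the replicate block (2.18, the 1 assay called there against 0). MiR-204 was counted by exact permutation after global mean scaling (0.30, p = 0.00794), an unadjusted p at its lower limit. The limma BH-adjusted p of miR-204 there was 0.448, which is no call. Of all tested assays, 3.60% likewise had all stellate above all non-stellate samples. The replicate block changed no other call.

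In the tissue comparison miR-449a ran from -7.93 to -3.44 and lost its call without tissue replicate 1 (-3.44). With samples left out the range was -5.42 to -3.44. With median centring miR-34b-3p turned to -2.09 and was called lower in tissue (limma adjusted p = 0.0476), as were 25.2% of tested assays. It turned to -1.78 with global mean scaling and -2.60 with Y1 scaling. MiR-34c turned to -1.85, -1.54 and -2.37 with median centring, global mean scaling and Y1 scaling. MiR-204 lost its call with Y1 scaling (0.25). The number of assays called was 141 with U6 scaling (138 higher and 3 lower in tissue), 68 with Y1 scaling (17 higher and 51 lower) and 238 without the filter on undetermined wells (182 higher and 56 lower). The cause was not tested. Without that filter miR-449b and miR-211 were fitted on wells at 40, and their values are not given.

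The mean number of members determined per non-stellate sample fell from 4.4 to 3.4 at Ct under 32. MiR-449a minus miR-34c (-0.93 between the sorted groups) ran from -1.72 to 0.012 when samples were left out, and was 0.012 without stellate replicate 1. The likeness of miR-34b-3p and miR-375 rose from 0.786 to 0.968 without non-stellate 3 and 5. Differences of miR-449a to miR-449b and of miR-204 to miR-211 could not be computed because of undetermined wells. The other 5 differences, the permutations after median centring and global mean scaling and the tissue permutation were chosen after seeing the data. Single wells, 5 samples a group and 2 tissue samples limit what could be detected.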
